A study of Homo sapiens with 9 samples.

Results

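A set of 11 protein-coding genes was nearly without reads in cultured DOHH2 lymphoma cells and carried reads in every library of the same cells recovered from mouse femurs. A gene entered the set if it had at most 3 raw counts summed over the 3 culture libraries and at least 50 raw counts in each of the 6 femur libraries. Of 19788 protein-coding genes, 14 met these limits, and CD9, DEPP1 and TNFRSF13B were left aside by name. IRF4 was also named for exclusion but had 5 culture counts and did not meet the limits. The 11 members are BAHCC1, CYSLTR1, GPSM1, KIAA1324 (now named ELAPOR1), KREMEN1, MYBPH, NEXN, PDGFRB, PLAC8, PPM1H and SRL.

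DOHH2 is an established human B-cell line from a transformed follicular lymphoma. Bulk RNA-seq compared cultured DOHH2 cells taken at grafting (day 0) with human CD20-positive cells sorted from femurs of RAGγc mice, which are immunodeficient and accept the graft, at day 19 and at day 40, with 3 libraries in each group. The genotype of the line was the same in all groups, and neither the mouse ages nor the number of animals per library is given in the labels. The femur cells went through bone digestion, bead depletion and sorting, and such steps are not described for the cultured cells, so handling and the move from culture to femur cannot be told apart. Libraries held between 21071239 and 29456271 counts, and all 7 B-cell markers examined (such as MS4A1, which encodes CD20) were present in every group. The library titles hold dates, taken here as collection dates, and each femur library was matched to a culture library by accession order. Neither the meaning of the dates nor the match is given in the labels. On this reading, cells labelled day 19 were collected 18, 19 and 19 days after their period's culture library. Those labelled day 40 were collected 11, 26 and 39 days after it. The labels of day 40 replicates 1 and 2 would then not match the dates. Results at day 40 are therefore also given with replicate 3 as the lone day 40 library. Nothing in the labels says whether the libraries of a group came from separate cultures or animals, so p-values reflect variation among these libraries alone, some of it possibly technical.

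Most of the 11 genes are known for work in cells other than B cells. SRL, MYBPH and NEXN encode proteins of striated muscle: a calcium-binding protein of the sarcoplasmic reticulum, a myosin-binding protein of the thick filament and an actin-binding protein of the Z-disc. PDGFRB, CYSLTR1 and KREMEN1 are cell-surface receptors, for platelet-derived growth factor, for cysteinyl leukotrienes and for the Wnt antagonists of the Dickkopf family. GPSM1 is an intracellular modulator of inhibitory G proteins. BAHCC1 is a large chromatin protein, PPM1H is a phosphatase of Rab GTPases, KIAA1324 is a transmembrane protein of the endosome and lysosome, and PLAC8 is a small cysteine-rich protein.

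The rule used the values of culture and of both femur groups, so their separation is given as a description, with no test. The culture counts of the members summed to between 1 (SRL and MYBPH) and 3 (GPSM1, KREMEN1, NEXN and PDGFRB). Values are given in CPM, counts scaled to a common library size by the trimmed mean of M-values (TMM). Members averaged between 3.65 CPM (KREMEN1) and 72.5 CPM (SRL) over the 6 femur libraries, with a median member at 5.14 CPM (not corrected for gene length). The ratio to culture had a median over the members of 188 at day 19 and 217 at day 40. The ratio was widest for SRL, at 5274 at day 40, with a 95% counting interval of 946 to 208349. It was lowest at day 40 for KREMEN1, at 49.97 (16.8 to 245), and lowest at day 19 for NEXN, at 84.4 (28.5 to 412). These intervals cover counting error only.

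**Figure D1:**
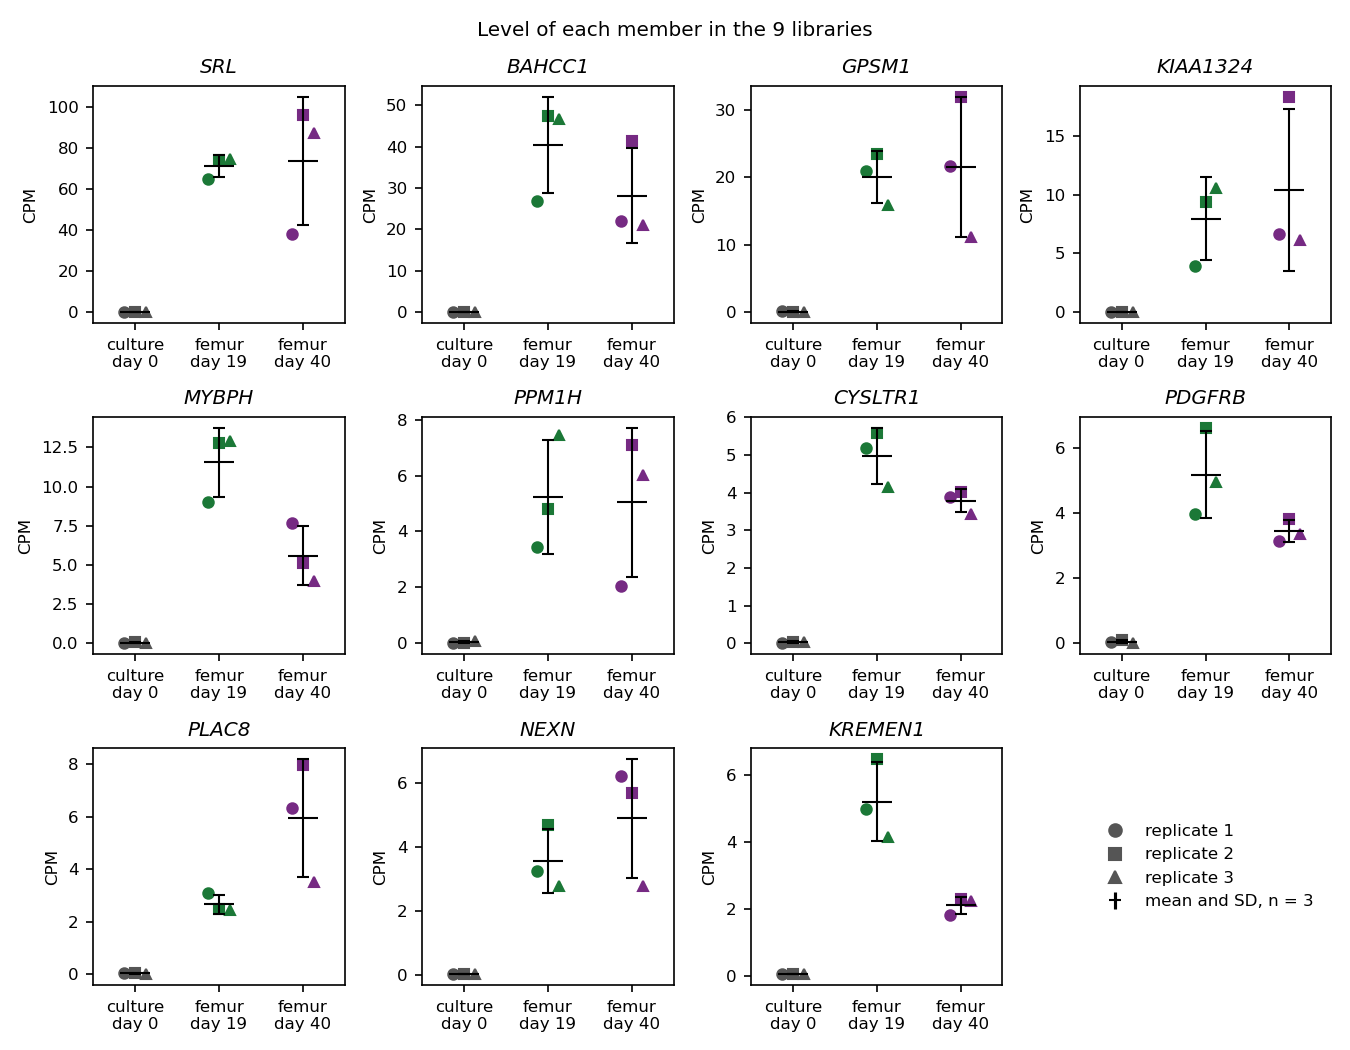
CPM of each of the 11 genes in the 9 libraries (y axis, a separate linear scale per gene) by group on the x axis, with a point per library and a bar for the mean and SD of 3 libraries. All culture points lie at or next to 0, and the spread of the day 40 libraries is wide for SRL, GPSM1 and KIAA1324.

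Some genes lay close to the limits of the rule. Just inside, the lowest femur library held 50 counts of KREMEN1, 53 of PLAC8 and 56 of PPM1H. Just outside, it held 49 counts of LCN8, 36 of PDCD1 and 34 of LDB3. On the culture side, NOTCH2 (4 counts), S100A4 (6) and APOL3 (7) stayed just outside.

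Set on a common scale, the members were mostly low in femur. Mean femur CPM per kb of exon, which allows levels to be compared between genes, was 12.7 for SRL, and this placed it above 71.2% of the 11679 protein-coding genes tested. MYBPH followed at 4.74 CPM per kb, GPSM1 at 4.05 and BAHCC1 at 2.54, all under the median protein-coding gene at 6.09. The other 7 members lay between 0.457 (KREMEN1, above 12.1% of genes) and 1.12 CPM per kb (PLAC8, above 19.9%). SRL was the one member whose femur level stood in the upper part of the range of the cells' coding genes. The order below BAHCC1 rests on small steps: KIAA1324 at 0.986 and NEXN at 0.957 CPM per kb, for example, differed by less than the spread of KIAA1324, whose CPM varied 4.63-fold over the 6 femur libraries.

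**Figure D2:**
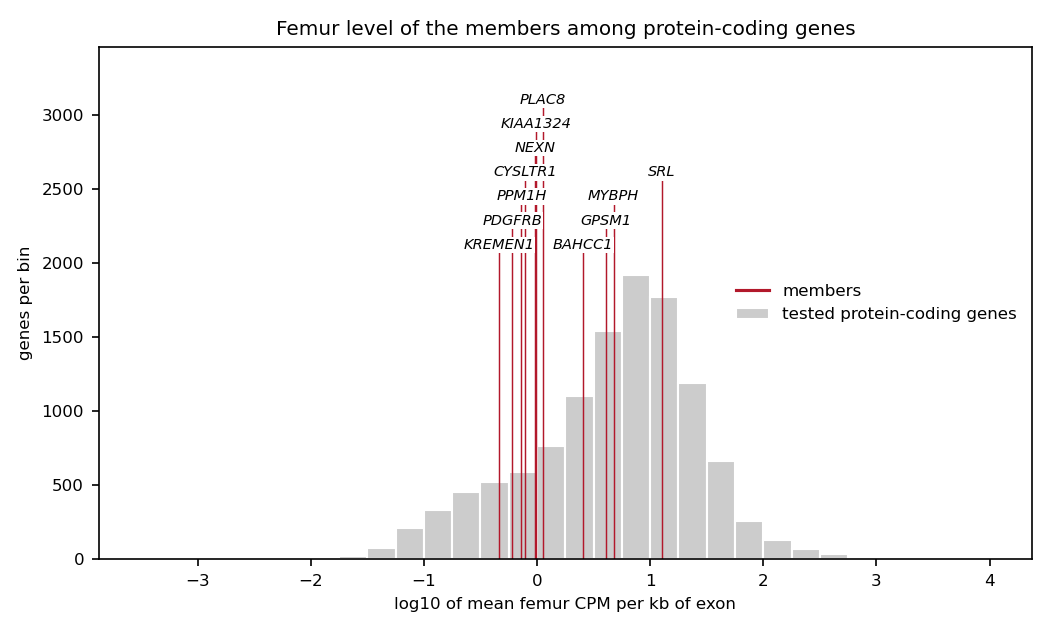
Number of tested protein-coding genes (grey bars, y axis) by log10 of mean femur CPM per kb of exon (x axis), with the 11 members as red lines whose heights only separate the labels. SRL at 12.7 CPM per kb lies right of the median gene at 6.09, and the other 10 members lie left of it.

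Between the femur groups, 3 of the 11 members differed by edgeR's quasi-likelihood test with Benjamini-Hochberg adjustment over the 15163 genes tested. PLAC8 was higher at day 40, against a background of 3.23% of all genes called higher, and KREMEN1 and MYBPH were lower at day 40, against 1.45% called lower. The other 8 were not called, and 4 members had an unadjusted p under 0.05. The libraries of day 40 and day 19 did not overlap for 5 members (CYSLTR1, KREMEN1, MYBPH, PDGFRB and PLAC8), and they did not overlap for 26.6% of all genes tested. Fitted log2 fold changes (day 40 minus day 19) were negative for 6 members and positive for 5, with a median of -0.05 beside 0.00 for all genes. A gene that lost nearly all its reads by day 40 could not enter the set, because the limit of 50 counts holds in all 6 femur libraries. In bulk samples, fewer cells with a transcript and less transcript per cell cannot be told apart.

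**Figure D3:**
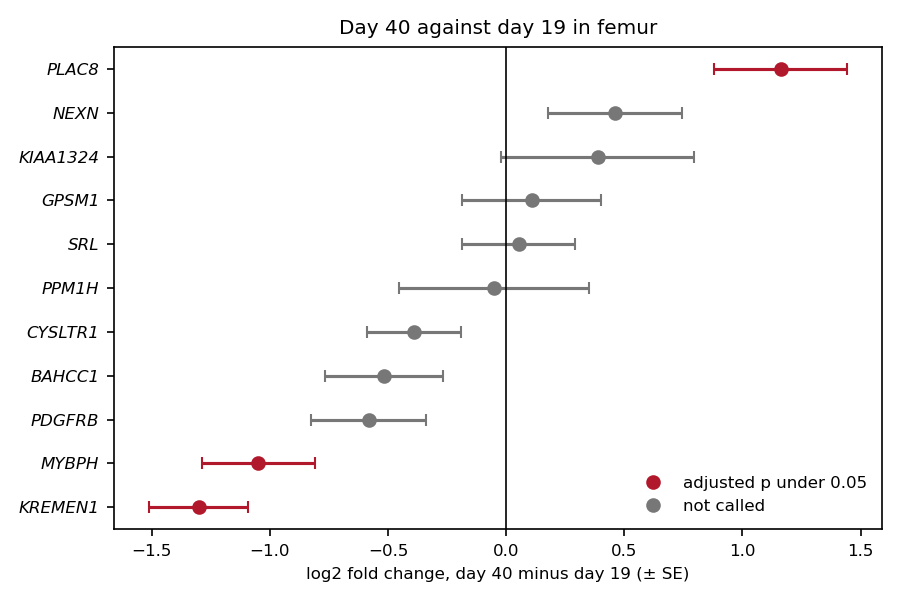
Log2 fold change of each member between the femur groups (x axis, day 40 minus day 19, bars ± SE) from the fit over all 9 libraries, with genes down the y axis and those at an adjusted p under 0.05 in red. PLAC8 (1.16) lies on the right, MYBPH (-1.05) and KREMEN1 (-1.30) on the left, and the 8 members not called lie between them.

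The femur libraries also ranked the members unevenly. No share over all genes tested stands beside these counts, so whether the order is particular to the members was not tested. Day 40 replicate 2 was the highest of its group for 9 of the 11 members and the lowest for 0. Day 40 replicate 3, dated 39 days after the culture library of its number, was the lowest of its group for 7 members and the highest for 0. At day 19, replicate 2 was the highest for 6 members and replicate 1 the lowest for 6.

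Among the muscle genes, SRL (chr16:4189374-4242080 on hg38) encodes sarcalumenin, which buffers calcium in the lumen of the sarcoplasmic reticulum of skeletal and heart muscle. SRL had 1 count over the 3 culture libraries, 64.9, 74.1 and 74.7 CPM at day 19 and 38.2, 96.1 and 87.3 CPM at day 40. The day 19 libraries lay close together, and the day 40 libraries spread on both sides of them, with replicate 1 lowest. SRL averaged 73.9 ± 31.2 CPM at day 40 and 71.2 ± 5.53 CPM at day 19 (SD, n = 3 each), a log2 fold change of 0.05 (SE 0.24) that was not called. With replicate 3 as the lone day 40 library it was 0.30, also not called.

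MYBPH (chr1:203167811-203175813) encodes myosin-binding protein H, a protein of the thick filament that is usually found in skeletal muscle. MYBPH had 1 count over the 3 culture libraries, 9.01, 12.8 and 12.9 CPM at day 19 and 7.64, 5.10 and 3.97 CPM at day 40. Every day 40 library lay under every day 19 library. MYBPH averaged 5.57 ± 1.88 CPM at day 40 and 11.6 ± 2.20 CPM at day 19 (SD, n = 3 each), and it was lower at day 40 by edgeR's quasi-likelihood test (log2 fold change -1.05, SE 0.24, adjusted p = 0.0262). This call was lost without day 40 replicate 2 (adjusted p = 0.101), day 40 replicate 3 (0.0731), day 19 replicate 2 (0.129) or day 19 replicate 3 (0.125). With replicate 3 as the lone day 40 library the log2 fold change was -1.53 (adjusted p = 0.0613).

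NEXN (chr1:77888513-77943895) encodes nexilin, an actin-binding protein of the Z-disc in heart and skeletal muscle. NEXN had 1 count in each culture library, 3.25, 4.70 and 2.79 CPM at day 19 and 6.23, 5.70 and 2.79 CPM at day 40. Replicates 1 and 2 were higher at day 40 than any day 19 library, and replicate 3 was not, so the groups overlapped. The log2 fold change of 0.46 (SE 0.28) was not called (adjusted p = 0.482), and with replicate 3 as the lone day 40 library it was -0.35. Of the 3 muscle genes, MYBPH alone passed the test between the femur groups, and whether the 3 differ from each other was not tested.

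Of the surface receptors, KREMEN1 (chr22:29073078-29168333) binds Dickkopf proteins and, together with them, removes the Wnt co-receptor LRP6 from the cell surface. It is expressed in many tissues. KREMEN1 had 1 count in each culture library, 4.97, 6.47 and 4.14 CPM at day 19 and 1.81, 2.28 and 2.21 CPM at day 40. The groups did not overlap, and the day 40 libraries lay within a narrow range. KREMEN1 averaged 2.10 ± 0.253 CPM at day 40 and 5.19 ± 1.18 CPM at day 19 (SD, n = 3 each), with a log2 fold change of -1.30 (SE 0.21, adjusted p = 0.00394 by edgeR's quasi-likelihood test). With replicate 3 as the lone day 40 library the log2 fold change was -1.22 and was not called (adjusted p = 0.189).

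PDGFRB (chr5:150113837-150155872) is the receptor tyrosine kinase for PDGF-BB and is a usual marker of pericytes, fibroblasts and smooth muscle. PDGFRB had 1, 2 and 0 culture counts, 3.96, 6.61 and 4.95 CPM at day 19 and 3.15, 3.82 and 3.36 CPM at day 40. The day 40 libraries lay under the day 19 libraries by a small margin. The log2 fold change of -0.58 (SE 0.24) had an adjusted p of 0.238 and was not called. It was -0.61 with the lone day 40 library, again not called.

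CYSLTR1 (chrX:78271464-78327691) is the G protein-coupled receptor of leukotriene D4, found on airway smooth muscle, eosinophils, mast cells and monocytes and blocked by montelukast. CYSLTR1 had 0, 1 and 1 culture counts, 5.19, 5.59 and 4.14 CPM at day 19 and 3.88, 4.02 and 3.44 CPM at day 40. It was the steadiest member over the 6 femur libraries, with a highest value 1.62 times the lowest. The log2 fold change of -0.39 (SE 0.20) was not called (adjusted p = 0.357), and neither was the value of -0.52 with the lone day 40 library.

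GPSM1 (chr9:136327476-136359605), also known as AGS3, binds GDP-bound alpha subunits of inhibitory G proteins and is best known from brain. GPSM1 had 3, 0 and 0 culture counts, 20.97, 23.4 and 15.9 CPM at day 19 and 21.6, 31.9 and 11.1 CPM at day 40. Day 40 held both the highest and the lowest femur library. GPSM1 averaged 21.5 ± 10.4 CPM at day 40 and 20.1 ± 3.84 CPM at day 19 (SD, n = 3 each), with a log2 fold change of 0.11 (SE 0.29) that was not called. The value was -0.84 with replicate 3 as the lone day 40 library, also not called.

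Among the remaining members, PLAC8 (chr4:83090048-83137075), also known as onzin, was first described in placenta and is also expressed in myeloid cells, lymphocytes and gut epithelium. PLAC8 had 1, 1 and 0 culture counts, 3.08, 2.47 and 2.45 CPM at day 19 and 6.34, 7.98 and 3.52 CPM at day 40. All day 40 libraries lay above all day 19 libraries, and replicate 3 lay nearest to them. PLAC8 averaged 5.95 ± 2.25 CPM at day 40 and 2.67 ± 0.357 CPM at day 19 (SD, n = 3 each), and it was higher at day 40 by edgeR's quasi-likelihood test (log2 fold change 1.16, SE 0.28, adjusted p = 0.0352). This call was lost with limma voom (adjusted p = 0.0603) and without day 40 replicate 1 (0.107) or 2 (0.157), without day 19 replicate 1 (0.0741), 2 (0.156) or 3 (0.152), or without culture replicate 1 (0.0510). With replicate 3 as the lone day 40 library the log2 fold change was 0.41 (adjusted p = 0.872).

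BAHCC1 (chr17:81395475-81466332) carries a BAH domain, a module that binds modified histones. BAHCC1 had 1, 0 and 1 culture counts, 27.0, 47.5 and 46.7 CPM at day 19 and 22.0, 41.3 and 21.1 CPM at day 40. Day 40 replicates 1 and 3 lay under every day 19 library, and replicate 2 lay among them. BAHCC1 averaged 28.1 ± 11.4 CPM at day 40 and 40.4 ± 11.6 CPM at day 19 (SD, n = 3 each), and the log2 fold change of -0.52 (SE 0.25) was not called (adjusted p = 0.329). In edgeR's quasi-likelihood test it passed the threshold in 2 alternatives: without day 40 replicate 2 (-0.91, adjusted p = 0.0416) and with no filter on low counts (-0.52, adjusted p = 0.000145). With the lone day 40 library it was -0.93 and was not called (adjusted p = 0.255).

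KIAA1324 (chr1:109113679-109206781) was first described as an estrogen-induced gene and is expressed in secretory epithelia such as stomach, pancreas and endometrium. KIAA1324 had 1, 0 and 1 culture counts, 3.96, 9.36 and 10.6 CPM at day 19 and 6.63, 18.3 and 6.15 CPM at day 40. Day 40 replicate 2 alone lay above the day 19 range, and the log2 fold change of 0.39 (SE 0.41) was not called. The sign turned without day 40 replicate 2 (-0.32) and with replicate 3 as the lone day 40 library (-0.37), and neither value was called.

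PPM1H (chr12:62643982-62935037) is a PP2C-type phosphatase that removes the phosphates that the kinase LRRK2 places on Rab GTPases. PPM1H had 0, 0 and 2 culture counts, 3.43, 4.80 and 7.48 CPM at day 19 and 2.03, 7.11 and 6.02 CPM at day 40. The groups overlapped throughout, and the log2 fold change of -0.05 (SE 0.40) was not called, nor was that of 0.21 with the lone day 40 library.

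Promoter sequences were available for 9 of the 11 members (all but SRL and KREMEN1), as windows of 300 bases from 250 before to 50 after the RefSeq gene start on GRCh38.p14. Those of BAHCC1 and GPSM1, the members with the highest CPM among the 9, and of MYBPH and PLAC8, which differed between the femur groups, are shown 5′ to 3′ on the strand of the gene, with capitals for the motifs searched.
BAHCC1 promoter, chr17:81395207-81395506, plus strand: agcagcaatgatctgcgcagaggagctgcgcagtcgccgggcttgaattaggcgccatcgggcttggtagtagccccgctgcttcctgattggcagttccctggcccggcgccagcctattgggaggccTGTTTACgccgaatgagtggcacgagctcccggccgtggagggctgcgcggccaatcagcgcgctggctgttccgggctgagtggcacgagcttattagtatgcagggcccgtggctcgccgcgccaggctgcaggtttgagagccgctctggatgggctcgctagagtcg
GPSM1 promoter, chr9:136327289-136327588, plus strand: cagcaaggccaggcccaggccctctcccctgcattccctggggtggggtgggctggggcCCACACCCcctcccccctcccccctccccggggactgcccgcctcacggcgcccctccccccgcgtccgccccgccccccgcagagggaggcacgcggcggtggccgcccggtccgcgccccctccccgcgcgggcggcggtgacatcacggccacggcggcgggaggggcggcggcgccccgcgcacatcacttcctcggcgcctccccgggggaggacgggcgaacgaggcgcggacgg
MYBPH promoter, chr1:203175777-203176076, minus strand: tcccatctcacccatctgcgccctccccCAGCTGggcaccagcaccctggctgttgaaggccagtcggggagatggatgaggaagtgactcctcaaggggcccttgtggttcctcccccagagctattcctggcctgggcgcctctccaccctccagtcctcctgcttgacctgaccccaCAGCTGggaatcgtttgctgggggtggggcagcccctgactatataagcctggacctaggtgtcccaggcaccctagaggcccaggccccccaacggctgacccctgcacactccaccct
PLAC8 promoter, chr4:83114680-83114979, minus strand: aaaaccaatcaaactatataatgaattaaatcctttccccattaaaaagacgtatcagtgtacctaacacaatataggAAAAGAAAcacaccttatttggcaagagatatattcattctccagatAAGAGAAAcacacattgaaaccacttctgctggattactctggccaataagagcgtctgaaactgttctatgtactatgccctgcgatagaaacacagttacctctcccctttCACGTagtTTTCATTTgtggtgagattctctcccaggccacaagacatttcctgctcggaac

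The capitals mark TGTTTAC, the FOXO core, in BAHCC1 and CCACACCC, the KLF core, in GPSM1. In MYBPH they mark CAGCTG, an E-box of the type bound by E2A and muscle factors, at 2 places. In PLAC8 they mark AANNGAAA, an element of the type bound by interferon regulatory factors, on both strands, and ACGTG, the core of the hypoxia response element, on the reverse strand. The PLAC8 window lies inside the span given above for this minus-strand gene (chr4:83090048-83137075), not at its outer end, so it describes an internal start. The 4 windows differ in makeup: the ratio of observed to expected CpG was 0.854 for BAHCC1 and 0.787 for GPSM1, but 0.463 for PLAC8 and 0.165 for MYBPH.

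Over the 9 windows this ratio was above 0.6 in 5 (55.6%), as in 65.7% of all 15843 promoters, so the members were not uniformly of the CpG island type. The CAGCTG E-box was in 4 of the 9 windows (44.4%: CYSLTR1, MYBPH, NEXN and PDGFRB), and in 17.7% of all promoters. AANNGAAA was in 3 (33.3%: CYSLTR1, PDGFRB and PLAC8), against 18.9% of all. ACGTG was in KIAA1324, PLAC8 and PPM1H (33.3%, against 23.7% of all), and in PPM1H it lies within CACGTG, the MYC-type E-box, which 8.88% of all promoters hold. TGTTTAC was in 2.61% of all promoters, CCACACCC in 3.38% and TATAAA, the letters of a TATA box, in 9.63%. Among the members TATAAA was in CYSLTR1, on the reverse strand and starting at -111 from the gene start. The MYBPH window holds TATATAAG, which a search for TATAAA does not match. None of the 9 windows held TGANTCA (AP-1), TGACGTCA (CRE), GGGANTTCC (NF-kB), CCGGAAG (ETS) or ATTTGCAT (octamer), which 5.75%, 2.59%, 2.19%, 14.2% and 1.70% of all promoters hold. Both strands were searched. These counts describe letters in the windows, with no test and no statement about factor binding.

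Several members have a close paralog that the same cells used in culture, chosen here by name after the members were known. TNRC18, the paralog of BAHCC1, averaged 144 CPM in culture, 146 at day 19 and 142 at day 40, with no call in any comparison. GPSM2, the paralog of GPSM1, was also level, at 34.9, 34.5 and 34.8 CPM. In both pairs the member carried nearly all its reads in femur, while the means of the paralog differed between groups by less than the SD of its culture libraries.

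KIAA1324L moved the other way from KIAA1324. It averaged 18.6 ± 4.76 CPM in culture, 7.36 ± 1.93 CPM at day 19 and 10.4 ± 1.37 CPM at day 40 (mean ± SD of 3 libraries), and it was lower at day 19 (log2 fold change -1.34, SE 0.21) and at day 40 (-0.84, SE 0.20) than in culture in all 15 alternatives. KREMEN2, the paralog of KREMEN1, was expressed in culture at 42.3 ± 6.28 CPM and was higher at day 19 (68.2 ± 5.93 CPM, log2 fold change 0.69) and at day 40 (59.1 ± 1.46 CPM, 0.48). LRP6, the co-receptor that KREMEN proteins act on, averaged 51.6 CPM in culture, 48.1 at day 19 and 53.2 at day 40 and was not called.

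LRP5 and DKK1, 2 further genes of this pathway, did differ between groups. LRP5, the paralog of LRP6, averaged 24.5 ± 3.08 CPM in culture, 32.1 ± 2.90 at day 19 and 23.5 ± 2.28 at day 40 (mean ± SD of 3 libraries). It was lower at day 40 than at day 19 (log2 fold change -0.45, SE 0.11, adjusted p = 0.0387 by edgeR's quasi-likelihood test), a call made in 7 of 16 alternatives. It was lost with total library sizes, with the lone day 40 library, without any 1 of the 6 femur libraries and without culture replicate 1, at adjusted p between 0.0519 and 0.537. LRP5 was higher at day 19 than in culture (0.39, SE 0.11, adjusted p = 0.0113 by the same edgeR test), a call lost without day 19 replicate 3 (0.0537). DKK1, which encodes a Dickkopf ligand of KREMEN1, had 46 counts in the culture group, 10 at day 19 and 157 at day 40. It was higher at day 40 than at day 19 (3.63, SE 0.72, adjusted p = 0.0126 by edgeR's quasi-likelihood test). That call was lost with limma voom (adjusted p = 0.0668), with the lone day 40 library (0.472) and without day 19 replicate 1 (0.0586), 2 (0.0595) or 3 (0.0620). Against culture, DKK1 was lower at day 19 (-2.10) and higher at day 40 (1.53), calls made in 7 and 6 of 15 alternatives. Both were lost with limma voom, without any 1 of the day 19 libraries and without culture replicate 1 or 2. The day 19 call was also lost with total library sizes and without day 40 replicate 2. The day 40 call was also lost without day 40 replicate 1 or culture replicate 3. With the lone day 40 library the value against culture was -0.41 and was not called.

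**Figure D4:**
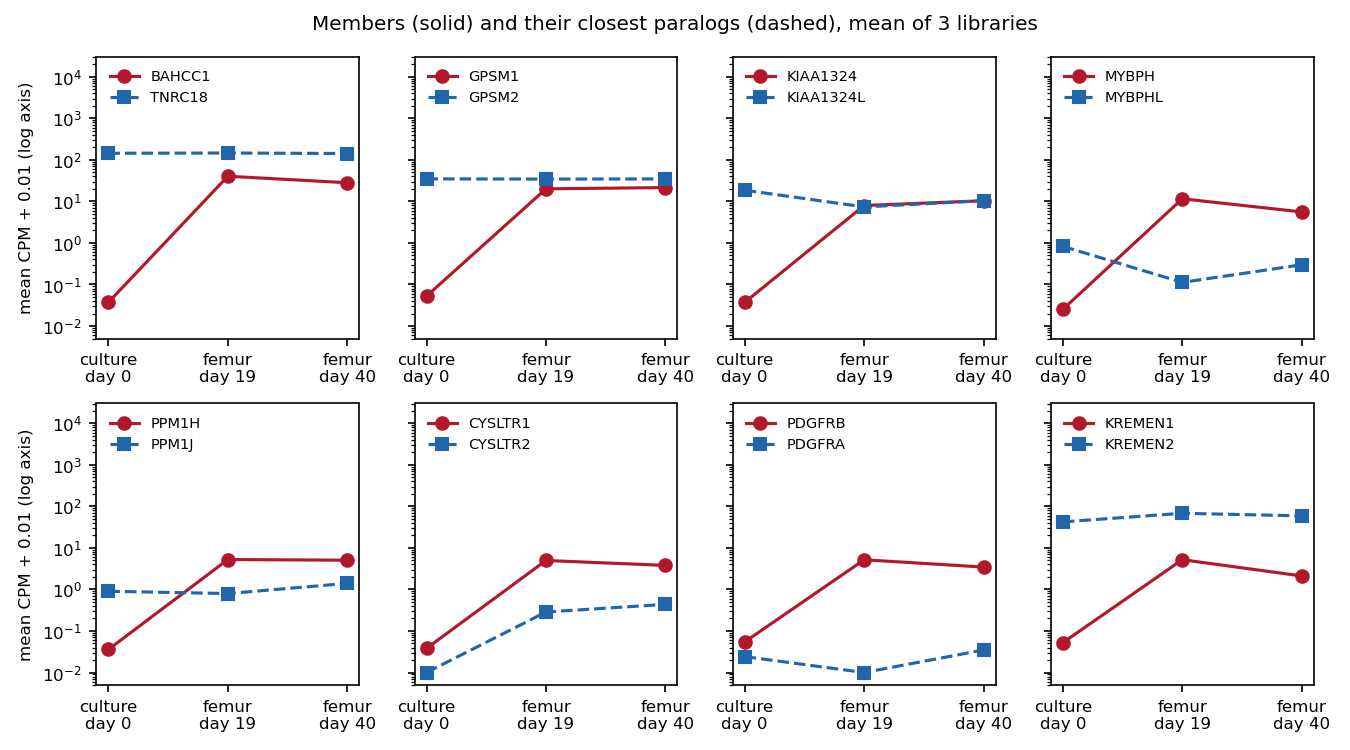
Mean CPM of 3 libraries plus 0.01 (y axis, log scale) by group (x axis) for 8 members (red, solid) and their closest paralogs (blue, dashed). TNRC18 and GPSM2 run level near 144 and 34.9 CPM, KIAA1324L is lower in both femur groups than in culture, and PDGFRA stays at 2 counts or fewer per group.

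The receptors' partners differed in their own levels. PDGFRA, the paralog of PDGFRB, had 1, 0 and 2 counts in the culture, day 19 and day 40 groups, and PDGFB, whose product binds PDGFRB, had 13, 34 and 16 counts, too few for the test. PDGFD, which encodes another PDGFRB ligand, averaged 8.18 CPM in culture, 4.42 at day 19 and 7.09 at day 40. For the leukotriene receptor, CYSLTR2 had 0 culture counts, which allows up to 3, then 19 counts at day 19 and 36 at day 40. It was called higher than culture in both comparisons, in all 15 alternatives. ALOX5, the enzyme that starts leukotriene synthesis, averaged 332 ± 26.9 CPM in culture, 444 ± 24.0 at day 19 and 421 ± 47.1 at day 40 (mean ± SD over 3 libraries), with log2 fold changes over culture of 0.42 and 0.34. Its activating protein gene ALOX5AP was lower in femur, with log2 fold changes over culture of -1.02 at day 19 and -0.83 at day 40. LTC4S, which makes the cysteinyl form, had between 15 and 19 counts per group and was not tested.

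For PPM1H, the opposing kinase gene LRRK2 averaged 1.81 ± 0.486 CPM in culture, 2.12 ± 0.620 at day 19 and 4.58 ± 0.601 at day 40 (mean ± SD over 3 libraries). It was higher at day 40 than in culture (log2 fold change 1.34, SE 0.25, adjusted p = 0.00108 by edgeR's quasi-likelihood test), in all 15 alternatives. LRRK2 was also higher at day 40 than at day 19 (1.11, SE 0.25, adjusted p = 0.0239 by the same edgeR test), in 11 of 16 alternatives. That call was lost with the lone day 40 library, and without day 40 replicate 1 or 2 or day 19 replicate 2 or 3. RAB10, one of the Rab substrates, averaged 129.6 CPM in culture, 92.8 at day 19 and 99.5 at day 40. For MYBPH, the paralog MYBPHL averaged 0.818 CPM in culture, 0.102 at day 19 and 0.289 at day 40. It was lower at day 19 than in culture (log2 fold change -2.91, SE 0.56), in all 15 alternatives.

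The wider families of 5 members held 71 other genes on fixed lists, of which 34 could be tested. At day 19, 12 of the 34 were higher than in culture and 13 lower, beside 26.3% of all genes called higher and 26.5% lower. At day 40, 10 were above culture and 7 below, beside 23.3% of all genes in each direction. Between day 40 and day 19, 2 were higher and 1 lower, beside 3.23% and 1.45% of all genes. With the sampling period as a replicate block 3 were higher, and 3 without culture replicate 2. PDGFD (log2 fold change 0.69, adjusted p = 0.240 by edgeR's quasi-likelihood test) was called higher at day 40 than at day 19 with that block and with no filter on low counts, and in 0 of the other alternatives. Both femur groups were set against the same culture libraries.

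Of the other sarcoplasmic reticulum calcium genes, 9 could be tested, and 3 were above culture at day 19 and 5 below. JPH3, a junctophilin known from neurons, was higher (0.819 CPM in culture, 3.80 at day 19 and 2.02 at day 40, with log2 fold changes over culture of 2.20 and 1.29). ASPH, the gene of junctin and of an aspartyl hydroxylase, was lower (55.01, 26.9 and 30.1 CPM, log2 fold changes -1.03 and -0.87), as was STAC3, an adaptor of the calcium channel of muscle (-0.51 and -0.36). JPH3 was also lower at day 40 than at day 19 (-0.91, adjusted p = 0.0186 by edgeR's quasi-likelihood test). That call was lost without day 40 replicate 1 (adjusted p = 0.0811) or 2 (0.0557), or day 19 replicate 1 (0.0734), 2 (0.0634) or 3 (0.0786), and was absent with the lone day 40 library (0.435).

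Of the other sarcomere genes, 10 could be tested, and 5 were above culture at day 19 and 5 below. MYBPC2, the fast skeletal isoform of myosin-binding protein C and a relative of MYBPH, was at 206 ± 22.2 CPM in culture, 30.6 ± 6.56 at day 19 and 96.4 ± 6.49 at day 40 (mean ± SD over 3 libraries). It was lower than culture at day 19 (log2 fold change -2.75, SE 0.13) and at day 40 (-1.10, SE 0.12). It was higher at day 40 than at day 19 (1.66, SE 0.13, adjusted p = 6.08e-05 by edgeR's quasi-likelihood test), the direction opposite to MYBPH, in all 16 alternatives. TCAP, which encodes telethonin of the Z-disc, was higher than culture at day 19 (1.23) and at day 40 (1.14).

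Among inhibitory G protein subunits and modulators, 7 could be tested, with 2 above culture at day 19 and 2 below. GPSM3 was lower at day 19 (log2 fold change -0.52, SE 0.10), as was GNAI3 (-0.39, SE 0.08), and RIC8B, a chaperone of G protein alpha subunits, was higher (0.79, SE 0.15). GNAI2, an inhibitory alpha subunit gene, averaged 311 CPM in culture, 297 at day 19 and 316 at day 40 and was not called. Of the other PDGF genes, 1 could be tested, PDGFD, and its lower level at day 19 (-0.88, adjusted p = 0.0205 by edgeR's quasi-likelihood test) lost its call without day 19 replicate 3 (0.0856), culture replicate 1 (0.0563) or culture replicate 2 (0.0800).

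All 7 other BAH and ASX-like chromatin genes were tested, and 2 were above culture at day 19 and 0 below. ASXL3, a scaffold of the BAP1 deubiquitinase that is usually expressed in brain, had 7 culture counts. It averaged 0.0962 CPM in culture, 1.75 ± 0.795 at day 19 and 8.07 ± 4.29 at day 40 (mean ± SD over 3 libraries). Its log2 fold change was 4.09 (SE 0.65) at day 19 and 6.29 (SE 0.57) at day 40 against culture, and 2.19 (SE 0.38) at day 40 against day 19, all called in every alternative. ASXL1 was higher at day 19 by 0.27 (SE 0.07).

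The members lie on 9 chromosomes, and their genomic neighbours mostly did not share the pattern. Of the 22 nearest protein-coding neighbours, 12 could be tested, with 4 higher and 3 lower than culture at day 19 (52.8% of all genes were called in either direction), and 2 higher and 2 lower at day 40 (46.6% of all genes). Between day 40 and day 19, edgeR's test called 0 of the 12 and 4.68% of all genes. Of the 22, 9 had at most 3 culture counts. CCDC187, 20.6 kb from GPSM1, averaged 0.757 ± 0.294 CPM in culture, 10.2 ± 0.207 at day 19 and 11.2 ± 0.969 at day 40 (mean ± SD over 3 libraries), with log2 fold changes over culture of 3.76 and 3.90 in the direction of GPSM1. CARD9, 2.30 kb on the other side of GPSM1, was higher by 1.16 and 0.78, and the day 40 call was lost with replicate 3 as the lone day 40 library (adjusted p = 0.0750). The near neighbours of MYBPH (ADORA1 and CHI3L1) and of PDGFRB (CSF1R and CDX1) had between 0 and 8 counts per group.

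Exons of 4 members overlap genes on the opposite strand, and whether reads were counted by strand is not given in the sources used here. GPSM1 shares 126 exon bases with DNLZ, which had 48, 97 and 114 counts in the culture, day 19 and day 40 groups. KIAA1324 shares 179 bases with C1orf194, which had at most 7 counts in a group, and NEXN shares 247 bases with NEXN-AS1, which had at most 4. BAHCC1 shares 424 bases with AC110285.4 and 27 with AC110285.7, which had at most 1 count in a group.

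Markers of other cell types were measured beside the members, and their part in the members' levels was not tested. The counts are on human genes, and how reads from the mouse host were treated is not given. Whether mouse cells were carried over was not tested, and zeros at human markers do not measure it. PDGFRB is itself a marker of marrow stroma, and 5 of the 12 stromal markers (CXCL12, LUM, POSTN, COL1A2 and COL3A1) were at 0 in every library. The other stromal markers without PDGFRB summed to 1.18 to 1.49 CPM in culture, 0.931 to 1.14 at day 19 and 1.07 to 2.28 at day 40. LEPR and COL1A1 had at least 50 femur counts, and COL1A1 had 39, 16 and 2 counts at day 40.

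For the muscle genes, the 8 skeletal muscle fibre markers summed to 12.2 to 22.0 CPM in culture, 26.7 to 32.6 at day 19 and 28.1 to 36.3 at day 40. Nearly all of this was TTN, the giant sarcomere protein gene, which averaged 17.2 CPM in culture, 29.4 at day 19 and 31.0 at day 40 and was called higher than culture in both comparisons. MYH1 and MYH2, which encode fast myosin heavy chains, were at 0 in all 9 libraries. In the order culture, day 19 and day 40, CKM had 1, 7 and 1 counts, DES had 0, 1 and 4, and ACTA1 had 7, 36 and 26.

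For PLAC8 and CYSLTR1, the 9 neutrophil and monocyte markers summed to 2.63 to 5.00 CPM in culture, 5.03 to 6.46 at day 19 and 2.87 to 5.69 at day 40. LYZ was the one with at least 50 femur counts, at 3.91 CPM in culture, 4.83 at day 19 and 3.83 at day 40. S100A8 and S100A9 were at 0 in all libraries. In the order culture, day 19 and day 40, ITGAM had 0, 16 and 30 counts, CD14 had 2, 25 and 22, and CSF3R had 0, 7 and 1. CSF1R went the other way, with 8, 2 and 6, and ELANE and MPO had at most 1 count in a group. Except for LYZ, these genes were not tested. Macrophage markers summed to at most 0.465 CPM in any library, with CD163, C1QA, C1QB and MARCO at 0. For GPSM1, the 8 neuron markers summed to 56.8 to 65.1 CPM in culture, 36.6 to 37.5 at day 19 and 42.9 to 58.6 at day 40. Among them RBFOX3, the gene of the neuronal nuclear antigen NeuN, went against this sum, with 12 culture counts, 31 at day 19 and 47 at day 40. It was called higher than culture at day 19 (log2 fold change 1.42, in 5 of 15 alternatives) and at day 40 (1.73, in 12 of 15). The day 19 call was lost with DESeq2, with limma voom and with the lone day 40 library. It was also lost without any 1 of 7 libraries (day 40 replicates 1 and 2, day 19 replicates 1 and 3 and the 3 culture libraries). The day 40 call was lost with the lone day 40 library and without day 40 replicate 1 or culture replicate 2. The other neuron markers with at least 50 femur counts, MAP2 and TUBB3, were called lower than culture at day 19 (log2 fold changes -0.837 and -0.699). At day 40 TUBB3 was called lower (-0.484) and MAP2 was not called. No alternatives are given for MAP2 and TUBB3.

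Endothelial markers summed to 9.03 to 15.0 CPM in culture, 6.05 to 6.46 at day 19 and 6.06 to 8.48 at day 40, with CDH5, KDR, TEK and EMCN at 0. Those with at least 50 femur counts were PECAM1 and ESAM. PECAM1 was called lower than culture at day 19 (log2 fold change -1.398) and was not called at day 40. ESAM was called lower than culture at day 19 (-0.923) and at day 40 (-1.172). No alternatives are given for PECAM1 and ESAM. TIE1, an endothelial receptor kinase gene, went the other way, with 1 culture count, 37 counts at day 19 and 12 at day 40. It was called higher than culture at day 19 in all 15 alternatives and at day 40 in 11 of 15, the day 40 call being lost with the lone day 40 library and without day 40 replicate 2, culture replicate 1 or culture replicate 3.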

How the data were processed

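The authors deposited raw read counts for 58243 Ensembl gene identifiers in each of 9 libraries. The submitters' processing notes name FastQC 0.11.5, STAR 2.5.2a, featureCounts 1.4.6, DESeq2 1.40.1 and the build hg38. Not given in the sources used here are the gene annotation, the strand setting and how multi-mapping and mouse reads were treated.

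Symbols, biotypes, exon lengths and hg38 positions were taken from GENCODE release 29, which named 57980 identifiers. The members, gene lists, partners and motifs were chosen with earlier results of these data known. The test used edgeR 4.0.16 in R 4.3.3: filterByExpr left 15163 genes, TMM gave the library scaling, and all 9 libraries entered a single quasi-likelihood fit with a term per group and two-sided F-tests of the contrasts. Each adjusted p is a Benjamini-Hochberg value over all genes tested, and genes under 0.05 were called. The procedure was tested on simulated counts. Alternatives were DESeq2 1.42.0, limma voom (limma 3.58.1), no filter, total library sizes, femur libraries alone, a replicate block, each library left out, and other limits of the rule. Replicate 3 as the lone day 40 library, and the alternatives for named partner, family, neighbour and marker genes, were added after the data were seen.

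Replicate numbers follow accession order. Members were all given in every library. Family genes were named by rule (up to 3 called genes with the smallest p per list). Markers with at least 50 femur counts were named for the stromal, muscle, neutrophil and monocyte, neuron and endothelial lists. Lists of osteolineage, erythroid, megakaryocyte and T and NK cell markers were also measured and are not described here. Partners, neighbours, TIE1, the markers at 0, CKM, DES, ITGAM, CD14, CSF3R, CSF1R, ELANE and MPO were named after their values were seen. Ratios to culture carry 95% exact counting intervals, and a count of 0 allows up to 3 counts. These cover counting error only. Promoters and CpG values came from RefSeq windows on GRCh38.p14.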

Additional observations from a re-analysis of the deposited data

How the results depend on the processing

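No member or other named result between the femur groups turned its sign as a called value. KREMEN1 was called in all 15 alternatives chosen at the outset. The count of members higher at day 40 (1) was 0 with limma voom and 0 to 1 when a library was left out, and the count lower (2) was 1 to 2 when a library was left out and 3 with no filter on low counts, which added BAHCC1. With replicate 3 as the lone day 40 library, which is assumed to vary like the other groups, both counts were 0. Over all genes, 490 higher and 220 lower calls became 890 and 434 with no filter, 82 and 17 with the lone day 40 library, and 217 to 755 and 63 to 438 when a library was left out. The lower calls were 360 with DESeq2 and 396 with the femur libraries alone. The median log2 fold change of the members was -0.39 to 0.11 when a library was left out and -0.52 with the lone day 40 library. Among the family genes, the 1 lower at day 40 than at day 19 was 0 to 1 when a library was left out and 0 with the lone library, and the 7 lower at day 40 than in culture were 4 to 8 and 4, while the 10 higher were 6 with the lone library. The set held 24 genes at a limit of 20 femur counts, 3 at a limit of 100, 0 where culture had to be at 0, and 11 to 13 when a library was left out of the rule.

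The groups shared replicate numbers, which came from accession order and stand here for a sampling period. Whether they pair the libraries is not given. Deviations of same-numbered day 40 and day 19 libraries correlated at 0.101, 0.132 and 0.305. With the sampling period as a replicate block, 1 member was higher and 2 were lower, as without it, and 652 and 314 of all genes were called. It changed no call of a member. The low counts limit the weaker members: 50 to 56 counts in the lowest library of KREMEN1, PLAC8 and PPM1H.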

Other observations

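Of the lists examined, 4 held no member of the set. Among voltage-gated sodium channel genes, 4 of 13 could be tested, and 2 were higher and 0 lower than in culture at both femur times. The background of calls was 26.3% higher and 26.5% lower at day 19, and 23.3% in each direction at day 40. Of 29 semaphorin and plexin genes, 14 could be tested, and 9 were higher and 4 lower than in culture at both times. Of 15 memory and plasma cell genes, 12 could be tested, with 3 higher and 6 lower than in culture at day 19 and 4 higher and 7 lower at day 40, beside the same 26.3% and 26.5% of all genes at day 19 and 23.3% at day 40. Of 11 fibrillar collagen genes, 3 could be tested, and 1 was higher at both times.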
